A study of Mus musculus with 8 samples.

Results

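The integrins, laminins and focal adhesion genes are 45 mouse genes listed by symbol, made up of 10 integrin α chains, 7 integrin β chains, 7 laminin chains, 2 nidogens and 19 intracellular adhesion genes. The hemidesmosomal integrin and laminin chains were left out of the list. Of the 45 genes, 41 had a row in the deposited tables among 24755 genes in all. In the table of hair follicle stem cells (HFSCs) there were 39 of 23861 genes, and in the table of epidermal stem cells (EpdSCs) 35 of 16231. Itga9, Itga11, Nid1 and Nid2 were not analysed here. Itga8, Itgb2, Itgb3, Lama2, Parvb and Fermt2 had values for HFSCs alone, and Itgb7 and Lama1 for EpdSCs alone.

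The 8 libraries were bulk RNA-seq of cells sorted from telogen dorsal skin, 2 per group. The HFSC groups were wild-type (WT) mice of 2 months and Msx2-KO mice of 6 months, and the EpdSC groups were WT and Msx2-KO mice, all of 6 months. The Msx2-KO allele carries a neo selection cassette upstream of exon 2 in the germline, so that all cells of the animal carry it, and the WT controls were C57BL/6J. HFSCs were gated as CD34+, CD49f+ and Sca-1-, and EpdSCs as CD34-, CD49f+ and Sca-1+. CD49f is itself an integrin α chain, the product of a hemidesmosomal gene outside the list, so the cells were selected for integrin protein at their surface. In HFSCs, age and genotype cannot be told apart. In both cell types the library names of WT and Msx2-KO had different prefixes or number ranges. The labels do not say whether those libraries were prepared or sequenced apart, which could not be told apart from genotype. The 2 tables were scaled separately, so no test was made between the cell types.

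Integrins are surface receptors made of an α and a β chain that tie a cell to its matrix. In skin the basal keratinocytes and the bulge stem cells rest on a basement membrane whose laminins, each assembled from an α, a β and a γ chain, are ligands of these receptors. Inside the cell, talins and kindlins bind the β chain tails and switch integrins on, vinculin, tensins, filamin and α-actinins link them to actin, ILK with PINCH and parvin forms an adaptor complex, and FAK and Src with the docking proteins paxillin and p130Cas carry the signal.

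The targeted gene did not separate the groups. Msx2 had 53 and 7 counts in WT HFSCs against 40 and 18 in HFSCs labelled Msx2-KO, and 58.5 and 85.4 units of normalised signal against 150.3 and 22.2 in EpdSCs. Group names below are those of the labels. HFSC libraries held 3132974 to 11016659 estimated counts. Of the HFSC counts, 12.5% and 41.9% were mitochondrial or ribosomal RNA in WT against 58.3% and 64.1% in the libraries labelled Msx2-KO, and 22453 and 19604 genes were detected against 11410 and 14252. In EpdSCs that RNA made up less in Msx2-KO, with 30.2% and 23.6% of the signal in WT against 5.18% and 9.74%. In EpdSCs, 1.73% and 1.29% of the genes were at 0 in the WT libraries and 20.2% and 5.82% in those labelled Msx2-KO. All 10 bulge markers had a row in HFSCs, summing to 53026 and 50147 normalised counts in WT against 25501 and 27889, with Fgf18 at 0 in replicate 1 labelled Msx2-KO. Suprabasal markers, 10 of 10 in the table, summed to 2473 and 2445 in WT HFSCs and 5326 and 19099 in those labelled Msx2-KO. Lor was at 0 in every library but replicate 2 of the libraries labelled Msx2-KO, and Flg2 at 0 in their replicate 1. Of 9 tested, 6 were higher without overlap (all genes, 17.5%), among them Krt10 (196 and 105 against 2271 and 9146). Calml3 was lower without overlap (1378 and 1182 against 756 and 863), and Sbsn and Flg2 overlapped. Sebaceous gland markers, 6 of 7 in the table, summed to 395 and 493 against 6776 and 5706, with Cidea at 0 in both WT libraries. In EpdSCs the sum of the suprabasal markers, 10 of 10 in the table, went the other way, from 300117 and 216815 to 107460 and 82105. Flg was at 0 in replicate 2 labelled Msx2-KO. Krt10 and Krt1 carried most of that sum in WT. Within the list 7 were lower without overlap (all genes, 44.5%), and 3 overlapped, Krtdap, Lor and Dsg1a (27775 and 23105 against 64734 and 9860). Bulge markers, 8 of 10, summed to 81906 and 98781 in WT EpdSCs against 243303 and 188374, and interfollicular basal markers, 9 of 9, to 188275 and 221851 against 595302 and 433903. Within the bulge list Krt15 carried most of the sum, Lgr5 was at 0 in 1 WT library, and Postn was called higher by limma (457 and 488 against 10771 and 8326). Within the basal list 5 of 9 were higher with groups not overlapping (all genes, 27.8%), among them Krt14, from 71869 and 84155 to 392157 and 275191. Fst and Thbs1 were lower without overlap, and Trp63 and Dll1 overlapped. The part of these differences in the members' values was not tested. In bulk samples fewer cells of a type and less RNA per cell cannot be told apart.

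Among the members, 3 of 35 tested in EpdSCs passed the test that was applied to all genes, each lower in the libraries labelled Msx2-KO. Of all EpdSC genes, 7.78% were called lower, a share near that of the members, and 0 members were called in HFSCs. These were Lamb1 (GRCm38, chr12:31265234-31329644, plus strand) and Lama5 (chr2:180176373-180225859, minus strand), which encode a β and an α chain of basement membrane laminin, and Itga1 (chr13:114953096-115101964, minus strand), a collagen-binding integrin α chain. All 3 are protein-coding genes. The bases just upstream of their starts are shown because these are the members that were called. They are RefSeq promoter sequences of build GRCm38.p6, 250 bases for Lama5 and Itga1 and 191 for Lamb1, stopping before the annotated gene start and holding no annotated exon. Capitals mark the GC box, GGGCGG or its reverse complement CCGCCC.
Lama5 (chr2:180225860-180226109, minus strand): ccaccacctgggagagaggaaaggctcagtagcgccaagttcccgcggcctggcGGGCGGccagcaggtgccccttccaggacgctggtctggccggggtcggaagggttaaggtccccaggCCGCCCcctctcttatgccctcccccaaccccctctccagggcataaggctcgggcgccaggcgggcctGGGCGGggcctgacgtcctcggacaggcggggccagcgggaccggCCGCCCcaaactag
Lamb1 (chr12:31265043-31265233, plus strand): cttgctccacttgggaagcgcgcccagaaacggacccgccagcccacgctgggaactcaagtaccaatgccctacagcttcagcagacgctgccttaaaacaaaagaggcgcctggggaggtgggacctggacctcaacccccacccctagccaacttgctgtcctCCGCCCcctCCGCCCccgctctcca
Itga1 (chr13:115101965-115102214, minus strand): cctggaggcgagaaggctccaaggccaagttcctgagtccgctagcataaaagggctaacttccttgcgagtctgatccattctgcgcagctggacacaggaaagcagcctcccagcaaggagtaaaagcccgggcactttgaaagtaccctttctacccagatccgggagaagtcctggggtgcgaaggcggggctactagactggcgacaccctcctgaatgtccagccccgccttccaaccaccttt
The Lama5 stretch held 4 GC boxes and the Lamb1 stretch 2, and these letters were not in the Itga1 window. Across the 250 bases before the start of 32851 promoters in the RefSeq table, 32.7% held a GC box on either strand. Promoters were in the table for 34 members, some with several starts, giving 40 sequences, and 57.5% of these held one. The homeodomain core TAATTG was in 5% of the member promoters (Lama2 and Parvb) and in 7.17% of all, TGACTCA in 2.5% (Zyx) and 4.46%, and the CArG box in 10% (Fermt2, Itgb6, Lama2 and Vcl) and 1.47%, counting both strands. The 3 printed stretches held none of these other motifs. Such matches describe the letters of the window and do not show a binding site.

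The levels of the members in WT cells were compared per kilobase of the longest coding transcript, and in both cell types the highest were those of genes that link adhesions to actin. In WT HFSCs, Tns1, an actin-binding tensin, had 413 normalised counts per kb, the highest mean of the list, with 462 and 363 in its libraries. The non-muscle α-actinins Actn1 and Actn4 followed at 330.2 and 328 per kb, and did not differ beyond the spread between libraries (345 and 316 against 332 and 324). Itgb1, the β chain that most α chains pair with, led the receptors at 236 per kb. Its partners Itgav, which binds RGD-containing ligands, and Itga3, which binds laminin, were at 97.1 and 87.5. The laminin chains of WT HFSCs were Lamb2 at 79.7, Lama5 at 66.8 and Lamc1 at 49.7 per kb, with Lama4 and Lamb1 lower at 11.1 and 10.6. Lamb1 (13.1 and 8.18) and Lama4 (13.2 and 9.03) did not differ beyond that spread.

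In WT EpdSCs, Actn4 had 2256 units of normalised signal per kb and the actin crosslinker Flna 833. Among the receptors, Itgb1 and Itga3 were at 549.5 and 543 per kb, within the spread of their libraries (443 and 656 against 455 and 631), followed by Itgb5, a partner of Itgav, at 398 and Itgav at 265. The laminin chains Lama5 and Lamb2 stood at 211 and 186 per kb, also within the spread, and Lama1 and Lamc1 at 120.3 and 103. Lamb1 was again among the lowest laminin chains, at 15.4 per kb.

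**Figure D1:**
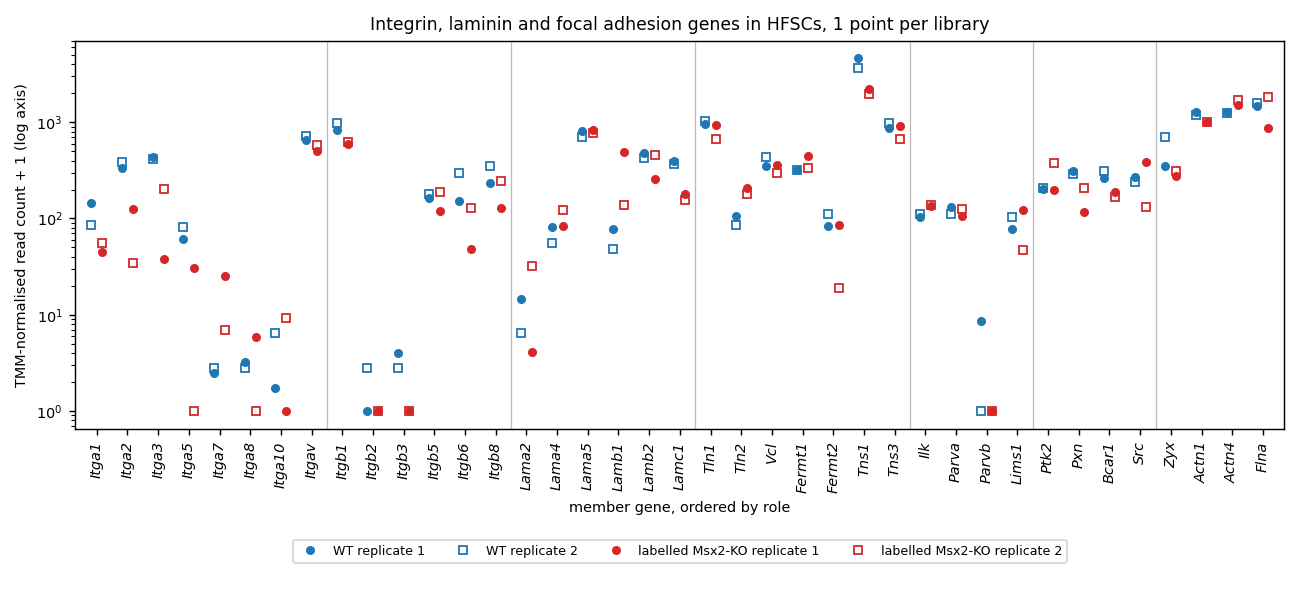
Normalised read counts plus 1 (log axis) of the 39 members in the HFSC table, grouped by role with grey lines between roles, 1 point per library (blue WT, red labelled Msx2-KO, circles replicate 1, squares replicate 2). Itga1, Itga2, Itga3, Itga5 and Itgav are lower in both red libraries, and Lamb1 is higher in both.

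In HFSCs the comparison of Msx2-KO with WT asked which adhesion genes changed with the labelled genotype. For most integrins expressed, both libraries labelled Msx2-KO had fewer transcripts than WT, with log2 fold changes of -2.23 for the fibronectin receptor chain Itga5, -2.18 for the collagen receptor chain Itga2 and -1.86 for the laminin receptor chain Itga3, while the laminin chains went different ways, with Lamb1 higher and Lamc1 lower. None of these differences passed the test over all genes. Of the 39 members in the table, 33 passed the filter on low counts, and edgeR's quasi-likelihood test called 0 of 33 higher, against 0.0% of all 14422 genes tested, and 0 lower, also against 0.0%. A call required a Benjamini-Hochberg adjusted p under 0.05 and a fold change over 2. DESeq2 and limma-trend also called 0 members, while over all genes they called 822 of 23227 and 1407 of 14422. At an unadjusted p under 0.05 there were 3 members lower (all genes, 12.8%) and 1 higher (all genes, 5.3%). The groups did not overlap, lower in the libraries labelled Msx2-KO, for 14 members (all genes, 33.5%), and higher for 6 (all genes, 17.5%). The median log2 fold change of the 33 members was -0.30, beside -0.14 over all genes. Without replicate 2 of the libraries labelled Msx2-KO, the median of the members was -0.38 (all genes, -0.72). Without their replicate 1 it was -0.42 (all genes, -0.32), each time with a single library left in that group. With scaling to library totals the median over all genes moved by -0.86 and that of the members moved to -1.14.

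All 9 integrin genes tested in HFSCs had negative log2 fold changes, with a median of -1.21 (all genes, -0.14). In 7 of them the groups did not overlap (all genes lower without overlap, 33.5%). The direction was the same under each scaling tried. Itga2, the α chain of a collagen receptor, had 329.7 and 389 normalised counts in WT against 123 and 33.4 in Msx2-KO as labelled. The groups did not overlap, with a log2 fold change of -2.18 ± 0.72 (SE) and an adjusted p of 0.230 by edgeR. Over the edgeR, DESeq2 and limma-trend alternatives that kept all libraries it was 0.086 to 0.230. Itga3, whose product binds laminins, had 439 and 411 normalised counts in WT against 37.4 and 199 in Msx2-KO as labelled, a log2 fold change of -1.86 ± 0.86 with an adjusted p of 0.399 by edgeR. Its libraries labelled Msx2-KO differed from each other more than the WT pair did. Itga5, the fibronectin receptor chain, had 60.8 and 80.0 normalised counts in WT against 29.4 and 0 in Msx2-KO as labelled (-2.23 ± 2.11, with a wide error and 1 library at 0). Itga1, another collagen receptor chain, had 143 and 85.5 normalised counts in WT against 43.5 and 54.9 in Msx2-KO as labelled (-1.21 ± 0.67).

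The most abundant receptor chains in HFSCs were also lower in both libraries labelled Msx2-KO. Itgb1, the common β chain, had 828 and 969 normalised counts in WT against 588 and 619.8 in Msx2-KO as labelled, a log2 fold change of -0.57 ± 0.22 with an adjusted p of 0.306, and the groups did not overlap. Itgav was at 656 and 715 normalised counts in WT against 503 and 579 in Msx2-KO as labelled (-0.34 ± 0.22), again without overlap. Among its β partners, Itgb6, an epithelial chain that binds latent TGF-β, had 150.2 and 296 normalised counts in WT against 47.2 and 128 in Msx2-KO as labelled (-1.35 ± 0.71), Itgb8, which shares that ligand, had 234 and 351 against 128 and 242 (-0.66 ± 0.47, overlapping), and Itgb5, a vitronectin receptor chain, had 162 and 178 against 119.5 and 189 (-0.14 ± 0.43, overlapping, and 0.13 without replicate 1 of the libraries labelled Msx2-KO). Transcripts of the leukocyte chain Itgb2, the platelet chain Itgb3 and the chains Itga8 and Itga10 were near 0, between 0 and 8.36 normalised counts in any library, and were not tested. Itga7, a laminin receptor chain also below the filter, went against the other integrins, with 2 and 1 counts in WT against 40 and 5 in Msx2-KO as labelled, without overlap.

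The laminin chains of HFSCs split. Lamb1 had 75.9 and 47.3 normalised counts in WT against 492 and 137 in Msx2-KO as labelled. Its log2 fold change was 2.34 ± 0.78, with an adjusted p of 0.232 by edgeR (0.084 to 0.473 over the alternatives that kept all libraries). The groups did not overlap, but the Msx2-KO pair differed from each other, with means of 61.6 ± 20.2 in WT and 315 ± 251 (SD, n = 2). Lamc1, the γ chain shared by most non-hemidesmosomal laminins, had 394 and 364 normalised counts in WT against 180.2 and 153 in Msx2-KO as labelled. Its log2 fold change was -1.19 ± 0.28, with an adjusted p of 0.143 by edgeR, the smallest of the members in HFSCs. Over the alternatives that kept all libraries the adjusted p of Lamc1 was 0.077 (limma-trend) to 0.511 (edgeR with the replicate number as a block). Lama5, the main α chain of adult basement membranes, had 818 and 704 normalised counts in WT against 824 and 774 in Msx2-KO as labelled, and its groups overlapped (0.07 ± 0.22). Thus the 3 chains that assemble into 1 laminin, from Lama5, Lamb1 and Lamc1, had unequal log2 fold changes. Lamb2, an alternative β chain, had 477 and 420.2 against 256 and 453 (-0.34 ± 0.37, overlapping), and Lama4, an α chain of vessels and nerve, had 79.6 and 54.6 against 83.4 and 121 (0.60 ± 0.64, without overlap, and -0.35 with scaling to library totals). Lama2, the muscle laminin chain, was between 3.06 and 31.1 normalised counts in all libraries and its groups overlapped.

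Of the 19 intracellular adhesion genes, 18 were tested in HFSCs, 6 with non-overlapping lower values (all genes, 33.5%) and 4 with higher ones (all genes, 17.5%). The median log2 fold change was -0.20 (all genes, -0.14). Tns1, the tensin that was the most abundant member, had 4606 and 3619.6 normalised counts in WT against 2227 and 1984 in Msx2-KO as labelled, a log2 fold change of -0.97 ± 0.27 with an adjusted p of 0.166 by edgeR (0.0767 to 1.000 over the alternatives). The groups did not overlap, while those of the related Tns3 did (860.0 and 975 against 916 and 669). Paxillin (Pxn) had 313 and 287 normalised counts in WT against 117 and 205 in Msx2-KO as labelled (-0.90 ± 0.41), the docking protein gene Bcar1 (p130Cas) 263 and 307 against 186 and 165 (-0.70 ± 0.31), and zyxin (Zyx), an actin regulator at mature adhesions, 347 and 704 against 274 and 311 (-0.84 ± 0.42), each without overlap. Tln1, the main talin, had 967 and 1022 against 929.7 and 664 (-0.32 ± 0.27) and Actn1 1287 and 1179 against 1003 and 1003 (-0.30 ± 0.21), also lower without overlap.

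Higher values without overlap were seen in HFSCs for Tln2, the other talin gene listed, with 105 and 85.5 against 205 and 178 (1.00 ± 0.41). The same held for the kinase-like adaptor Ilk with 101 and 109 against 134 and 139 (0.37 ± 0.45). The epithelial kindlin Fermt1 had 319 and 318 against 446 and 333 (0.29 ± 0.28) and Actn4 1289 and 1255 against 1496 and 1716 (0.34 ± 0.22), also higher without overlap. But with scaling to library totals the log2 fold changes of Ilk, Fermt1 and Actn4 turned to -0.47, -0.54 and -0.53. The groups overlapped for the remaining tested genes: vinculin (Vcl, -0.25 ± 0.27), which strengthens the talin link, the FAK gene Ptk2 (0.48 ± 0.43), Src (0.03 ± 0.60), the parvin Parva (-0.06 ± 0.47), the PINCH gene Lims1 (-0.10 ± 0.75), the second kindlin Fermt2 (-0.90 ± 1.00), Tns3 (-0.21 ± 0.27) and Flna (-0.20 ± 0.42). Parvb, a parvin of muscle and other tissues, was at 7.51 normalised counts in 1 WT library and at 0 in the other 3. Reads of Ilk are uncertain, since exons of Taf10 and Rrp8 on the opposite strand overlap 89.7% of its exonic bases and the use of strand in counting is not given in the sources used here. The same holds for Vcl, with 25.5% overlapped by Ap3m1.

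**Figure D2:**
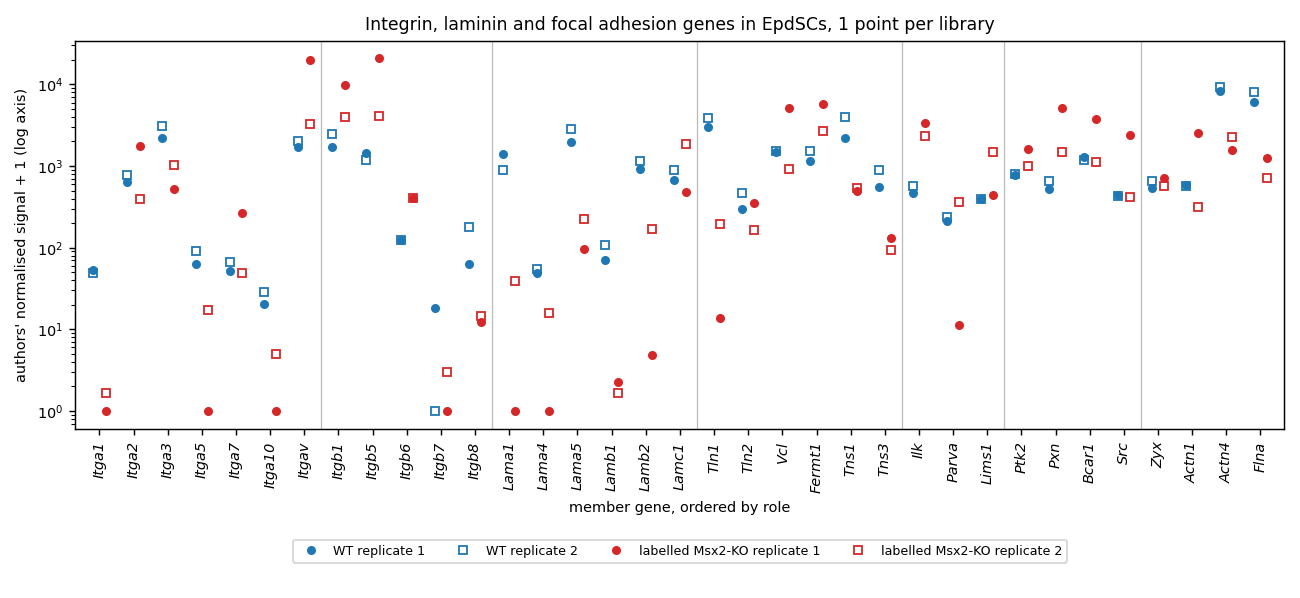
The authors' normalised signal plus 1 (log axis) of the 35 members in the EpdSC table, grouped by role with grey lines between roles, 1 point per library (blue WT, red labelled Msx2-KO, circles replicate 1, squares replicate 2). Laminin chains other than Lamc1 lie below both WT libraries in both red libraries, and the red libraries stand far apart for Itgav, Itgb5, Tln1 and Lamb2.

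In EpdSCs the same comparison was between mice of 1 age. Of 6 laminin chains, Lamb1 and Lama5 fell in the libraries labelled Msx2-KO, 3 more lay below WT without passing the test and Lamc1 overlapped. The integrin chain Itga1 fell too, while the β chains Itgb1, Itgb5 and Itgb6 and the adaptor Ilk were higher without passing it. All 35 members were tested with limma on log2(value + 1). On that scale the change of a gene near 0 comes out smaller than it is, and so does the spread between its libraries. It called 3 members lower, against 7.78% of all 16231 genes tested, and 0 higher, against 1.57%. At an unadjusted p under 0.05 there were 12 lower (all genes, 23.1%) and 3 higher (all genes, 12.2%). The groups did not overlap, lower in the libraries labelled Msx2-KO, for 15 members (all genes, 44.5%) and higher for 9 (all genes, 27.8%). The median log2 fold change was -0.63 over the members and -0.64 over all genes. The count of members called lower was 1 with a pseudocount of 0.1 (Lamb1), beside 949 of all 16231 genes. It was 9 with a pseudocount of 10 (all genes, 1354) and 7 with a mean-dependent prior (all genes, 1448). The last pair of settings each called 1 member higher, Ilk, beside 619 and 684 of all genes. With 2 libraries per group, 1 library set many calls, and the medians with each library left out are given with the alternatives.

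Lamb1 had 70.4 and 107 units in WT against 1.27 and 0.674 units in Msx2-KO as labelled. Each Msx2-KO value equals the value of 1 count in its library, and on these implied counts, which were not recovered for the whole table, the WT level was 102 times higher with a 95% exact interval of 27.9 to 850 that covers counting error only. The log2 fold change was -5.49 ± 0.53 (SE), with an adjusted p of 0.0266 by limma (0.0122 to 0.288 over the alternatives). Lama5 had 1981 and 2821 units in WT against 96.8 and 224 units in Msx2-KO as labelled. Its means were 2401 ± 594 and 161 ± 90.3 (SD, n = 2), a log2 fold change of -3.99 ± 0.66 with an adjusted p of 0.0487 by limma (0.0123 to 0.399 over the alternatives). Lama5 was no longer called with a pseudocount of 0.1, with a filter at a mean of 10, with library totals or with mitochondrial and ribosomal RNA genes left out.

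The other laminin chains of EpdSCs had the same direction, apart from Lamc1, but wider errors. Lama1, an α chain best known from embryonic basement membranes, had 1405 and 887 units in WT against 0 and 37.7 units in Msx2-KO as labelled, a log2 fold change of -7.49 ± 1.98 with an adjusted p of 0.0950 by limma. Lamb2 had 932 and 1160.0 units in WT against 3.82 and 167 units in Msx2-KO as labelled (-5.19 ± 1.92) and the libraries labelled Msx2-KO were farther from each other than the WT libraries were. Lama4 was low in all libraries, with 47.7 and 53.1 against 0 and 14.8 (-3.69 ± 1.52). Endothelial and mural markers, 5 of 11 in the EpdSC table, summed to 602 and 882 in WT against 157 and 159.9, with Vwf and Tagln at 0 in replicate 1 labelled Msx2-KO. Cspg4 carried most of that sum (516 and 829 against 5.09 and 121), while Pecam1 was higher without overlap (8.67 and 4.74 against 24.2 and 18.2) and Acta2 overlapped (24.9 and 22.8 against 127 and 16.2). Their part in the values of Lama4 was not tested. Lamc1 had 667 and 901 units in WT against 478 and 1836 units in Msx2-KO as labelled and its groups overlapped (0.27 ± 0.85, and -0.34 with mitochondrial and ribosomal RNA genes left out). Of 6 laminin chains tested, 5 were lower without overlap (all genes, 44.5%), with a median of -4.59 (all genes, -0.64).

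The integrin α chains were mixed in EpdSCs, with 4 of 7 lower (all genes, 44.5%) and 1 higher (all genes, 27.8%) without overlap. Itga1 had 52.0 and 47.4 units in WT against 0 and 0.674 units in Msx2-KO as labelled, and the Msx2-KO pair held 1 implied count in all. On implied counts the WT level was 112 times higher (95% exact interval 19.7 to 4486, counting error only), and the log2 fold change was -5.29 ± 0.53 with an adjusted p of 0.0266 by limma (0.00879 to 0.308 over the alternatives). With a pseudocount of 0.1, Itga1 was no longer called. Itga3, the most abundant α chain in WT, had 2211 and 3068 units in WT against 516 and 1016 units in Msx2-KO as labelled, a log2 fold change of -1.85 ± 0.60 with an adjusted p of 0.127 by limma. Itga5 had 62.8 and 91.1 against 0 and 16.2 (-4.21 ± 1.57) and Itga10, a collagen receptor chain, 19.5 and 27.3 against 0 and 4.04 (-3.42 ± 0.98), both lower without overlap. Itga10 shares 33.5% of its exonic bases with Gm42957 on the same strand, so its reads are uncertain. Itgav went the other way, with 1695 and 2044 units in WT against 19821 and 3253 units in Msx2-KO as labelled. Its log2 fold change of 2.11 ± 1.05 rested on libraries labelled Msx2-KO that were far apart, though both lay above WT. Itga2 (635 and 770.2 against 1751 and 396) and Itga7 (50.9 and 66.4 against 266 and 47.9) overlapped.

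Among the β chains of EpdSCs, Itgb1, Itgb5 and Itgb6 were higher without overlap. Itgb6 had 123 and 123 units in WT against 401 and 408 units in Msx2-KO as labelled, values that agreed closely within each group, for a log2 fold change of 1.70 ± 0.46 with an adjusted p of 0.0969 by limma. Itgb5 had 1436 and 1178 units in WT against 20841 and 4069.8 units in Msx2-KO as labelled (2.82 ± 0.97, adjusted p 0.137 by limma), and Itgb1 had 1691 and 2502 units in WT against 9711 and 3977 units in Msx2-KO as labelled (1.59 ± 0.69, adjusted p 0.186 by limma). For both, replicate 1 of the libraries labelled Msx2-KO was far above replicate 2. Itgb8 was lower, with 61.7 and 178 units in WT against 11.5 and 13.5 units in Msx2-KO as labelled (-2.98 ± 0.72, adjusted p 0.0832 by limma), so that the αv partners did not share a direction. Itgb7, a leukocyte chain, was at 17.3 and 0 against 0 and 2.02, overlapping. Immune markers, 8 of 11 in the EpdSC table, summed to 898 and 114 in WT against 25.5 and 12.8, with Cd207, Cd3e and Ptprc at 0 in both libraries labelled Msx2-KO, and the part of such cells in the values of Itgb7 was not tested.

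Of 17 intracellular adhesion genes tested in EpdSCs, 5 were lower (all genes, 44.5%) and 5 higher (all genes, 27.8%) without overlap. The median log2 fold change was 0.55 (all genes, -0.64). The lower set held links to actin. Flna had 6124 and 7962 units in WT against 1258 and 717 units in Msx2-KO as labelled, a log2 fold change of -2.88 ± 0.56 with an adjusted p of 0.0614 by limma. Actn4 had 8262 and 9232 units in WT against 1589 and 2239.6 units in Msx2-KO as labelled (-2.21 ± 0.50, adjusted p 0.0750 by limma). In neither gene did the groups overlap. The tensins Tns1 with 2232 and 4015 against 499 and 535 (-2.53 ± 0.55, adjusted p 0.0723 by limma) and Tns3 with 559 and 902 against 131 and 93.0 (-2.67 ± 0.55, adjusted p 0.0663 by limma) had the same direction. Tln1 had 2998 and 3849 units in WT against 12.7 and 195 units in Msx2-KO as labelled (-6.03 ± 1.47, adjusted p 0.0843 by limma), with the widest relative gap between replicates among these 5.

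The higher set held Ilk, with 471 and 572 units in WT against 3392 and 2327 units in Msx2-KO as labelled, a log2 fold change of 2.43 ± 0.51 and an adjusted p of 0.0675 by limma (0.0147 to 0.406 over the alternatives). Its reads carry the uncertainty given above. Pxn had 517 and 664 against 5208 and 1485 (2.25 ± 0.81), Fermt1 1139 and 1529 against 5708 and 2656 (1.56 ± 0.63), Lims1 389.9 and 398 against 436 and 1500.3 (1.03 ± 0.79) and Ptk2 773 and 806 against 1607 and 999 (0.68 ± 0.52), all without overlap and with adjusted p by limma of 0.147, 0.170, 0.381 and 0.381. Overlapping groups were found for Vcl (0.55 ± 1.01), Zyx (0.10 ± 0.48), Src (1.21 ± 1.02), Bcar1 (0.75 ± 0.78), Actn1 (0.62 ± 1.17), Tln2 (-0.63 ± 0.66) and Parva (-1.82 ± 1.87). Parva had 210.1 and 236 units in WT against 10.2 and 359 units in Msx2-KO as labelled, so that 1 library of the pair lay below WT and the other above it.

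The 31 members tested in both cell types were set side by side, each against its own WT libraries. In 5 genes both cell types had non-overlapping lower values (15.3% of the 13151 genes tested in both), and in 2, Ilk and Fermt1, both had higher ones (all genes, 5.68%), though those of HFSCs turned negative with scaling to library totals. In 7 genes the groups were apart in opposite directions (all genes, 16.5%). Lamb1 was higher in HFSCs (2.34 ± 0.78) and lower in EpdSCs (-5.49 ± 0.53), as were Lama4 and Actn4, though these had negative values in HFSCs with scaling to library totals. Such a pairing, higher in HFSCs and lower in EpdSCs, was found for 7.97% of all genes. Itgav, Itgb1, Itgb6 and Pxn were lower in HFSCs and higher in EpdSCs (all genes, 8.58%). The difference between cell types was not tested, and in HFSCs the groups also differed in age. The 5 genes lower in both were Itga1, Itga3, Itga5, Tln1 and Tns1.

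**Figure D3:**
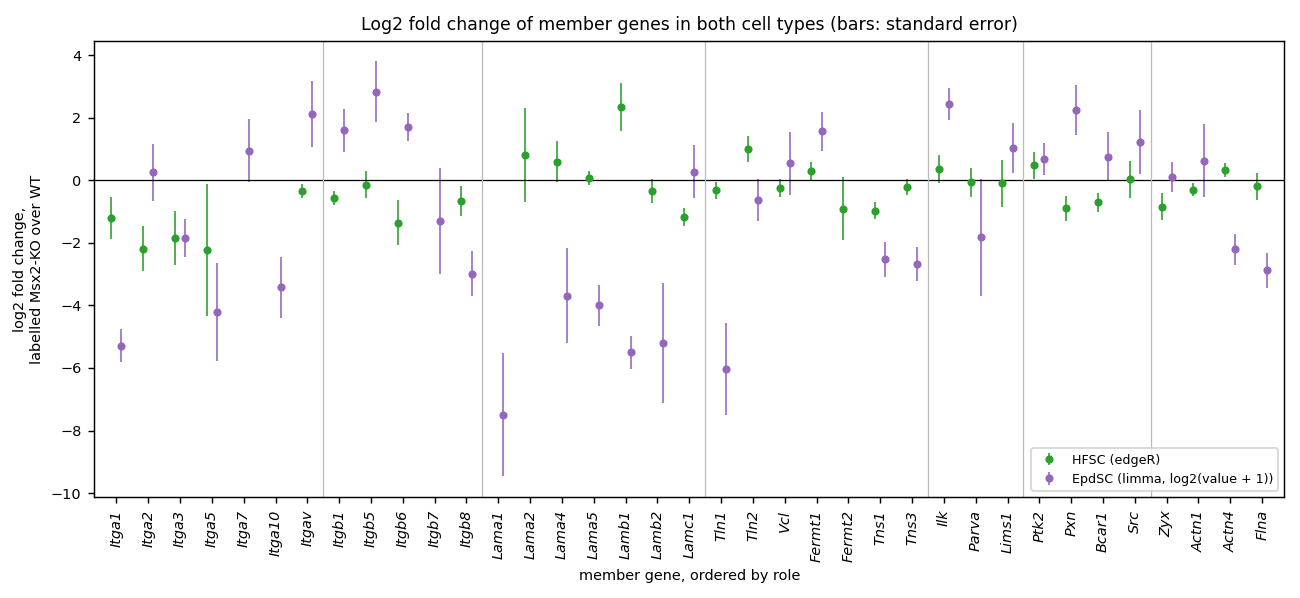
Log2 fold change (labelled Msx2-KO over WT) with its standard error for each member tested, in HFSCs (green, edgeR on counts) and EpdSCs (purple, limma on log2(value + 1)), ordered by role with grey lines between roles. Green points for the 9 tested integrins lie below 0, and purple points spread from -7.49 (Lama1) to 2.82 (Itgb5).

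Fold change and transcript length went together among the members in EpdSCs. Over the 35 members, which share the same libraries, Spearman's rho between the log2 fold change and the length of the longest coding transcript was -0.605. Across all 12171 coding genes of the EpdSC table it was -0.06, and -0.147 for the 9120 with a mean of at least 100. In HFSCs it was 0.07 over 33 members, -0.131 over 11599 coding genes and -0.261 for the 5157 with a mean of at least 100. Among members of EpdSCs, the long transcripts of Lama5 (11.4 kb) and Tns1 (9.97 kb) had lower values and the short transcript of Ilk (1.79 kb) higher ones, while Itgav (7.05 kb) and Tln2 (12.1 kb) did not follow that order. With GC content of the transcript, rho over the members was -0.077 in EpdSCs and 0.00 in HFSCs, beside -0.243 and 0.105 over all coding genes. The part of length or RNA quality in the members' fold changes was not tested.

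**Figure D4:**
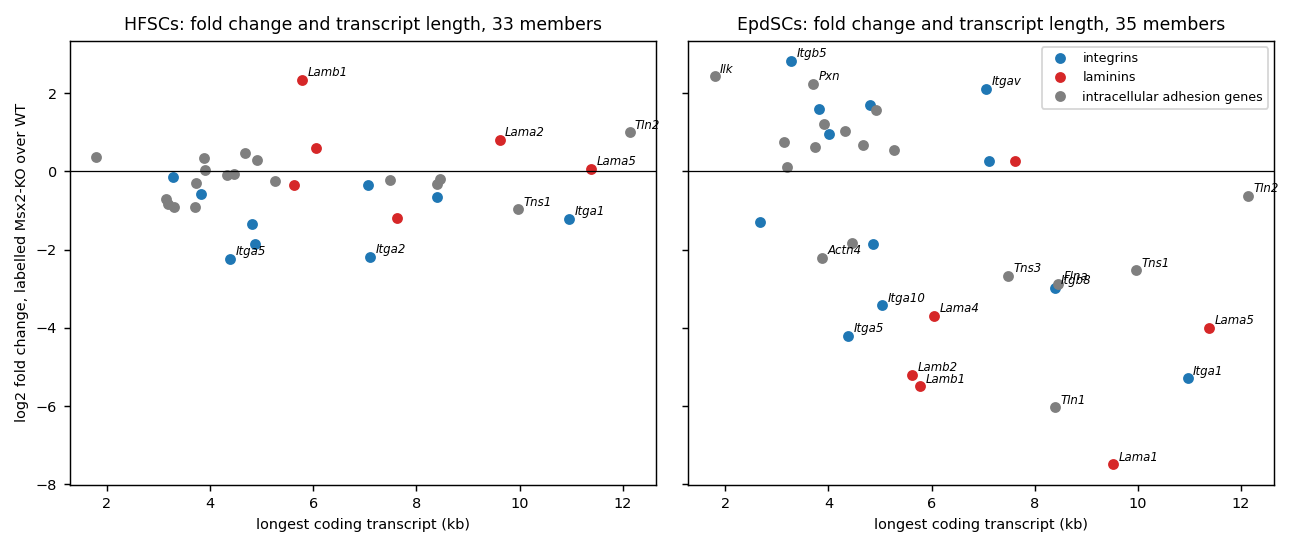
Log2 fold change (labelled Msx2-KO over WT) of the members tested against the length of the longest coding transcript in kb, for 33 members in HFSCs (left) and 35 in EpdSCs (right), coloured as integrins, laminins or intracellular genes. In EpdSCs the points fall from upper left to lower right (rho -0.605), and in HFSCs they do not (rho 0.07).

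Other genes of the pathway were counted by list. Over all HFSC genes edgeR called 0.0%, with 12.8% lower and 5.3% higher at an unadjusted p under 0.05, and the median was -0.14. Over all EpdSC genes limma called 7.78% lower and 1.57% higher, with 23.1% and 12.2% at that unadjusted p, and the median was -0.64. Of 55 other focal adhesion genes tested in HFSCs, edgeR called 0, with 7 lower and 1 higher at an unadjusted p under 0.05, and the median log2 fold change was -0.11. Of 56 tested in EpdSCs, limma called 2 lower and 4 higher, with a median of 0.34. Those lower were Kank1, a talin-binding protein gene, with 6662 and 5757 against 180.0 and 293, and Myh9, non-muscle myosin, with 18832 and 23493 against 1137 and 1213. Among those higher was Rac1, a small GTPase of membrane ruffles, with 2351 and 2176 against 51809 and 28606, named after its values were seen. Of 14 integrin ligand genes tested in HFSCs, 4 were lower and 1 higher at an unadjusted p under 0.05 with 0 called by edgeR, and the median was -1.29, the same with Icam1, which was at 0 in both libraries labelled Msx2-KO, set at its bound. That bound, from a floor of 3 counts per library, placed Icam1 at least 18.6-fold lower for counting error only, and its adjusted p by edgeR was 0.143. Of all HFSC genes, 50.8% and 38.7% were at 0 in the libraries labelled Msx2-KO, against 4.17% and 15.2% in WT. Of 13 ligand genes in EpdSCs limma called 0, with 4 lower and 1 higher at an unadjusted p under 0.05 and a median of -0.29. Other basement membrane genes had 1 lower and 1 higher of 13 at an unadjusted p under 0.05 in HFSCs and 1 lower and 3 higher of 12 in EpdSCs, with 0 called in either by edgeR or limma and medians of -0.47 and -0.01.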

How the data were processed

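Stranded total RNA libraries of FACS-sorted HFSCs and EpdSCs, 2 per group, were aligned by the authors with STAR (2.7.3a in the submitters' processing notes) to GRCm38/mm10 in Partek Flow and counted on GENCODE M25 genes. Whether counting used strand is not given in the sources used here. The deposited HFSC values were estimated counts per gene, not normalised by the authors. For EpdSCs the deposited values were a normalised signal, estimated counts divided by 1 factor per library, in which 73.1% to 82.0% of the values below 100 counts were whole to within 0.02 counts, so reads were not recovered and the depth rests on the value of 1 count (0.674 to 1.27). The authors' own comparisons (fold changes, p-values and FDR) were not used.

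Libraries were grouped by their labels. Rounded HFSC counts were scaled by TMM, and 14422 genes passing edgeR's filter on low counts were tested by its quasi-likelihood test (edgeR 4.0.16), and limma 3.58.1 was run on log2(value + 1) of the EpdSC table, with p-values Benjamini-Hochberg adjusted over all genes. The members, gene lists and alternatives were chosen with earlier results of these data known. Every member is reported, with values per library for the most abundant of each role and those at an unadjusted p under 0.05, and other genes beside the count of their list. In simulated data, 200 genes were changed by a fold of 8. At a dispersion of 0.05 the tests called 198 changed and 9 unchanged of 13635 genes in the HFSC design and 199 and 4 of 16231 in the EpdSC design, and at 0.5 neither called any gene. The HFSC libraries had a common dispersion of 0.823. Nothing in the labels says that replicates came from separate animals, so p-values measure the spread between these libraries, and with 2 against 2 an exact two-sided permutation test cannot go below 0.333. Positions are from GENCODE M21 (GRCm38) and promoters from RefSeq (GRCm38.p6). R 4.3.3, Python 3.11.15 and DESeq2 1.42.0 (alternative) were used. The check of replicate numbers is given with the alternatives.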

Additional observations from a re-analysis of the deposited data

Results flagged for a closer look

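Each of these 7 genes had non-overlapping groups in opposite directions in the 2 cell types, as did 16.5% of the 13151 genes tested in both, and the difference between cell types was not tested. Itgav had a log2 fold change of -0.34 in HFSCs and 2.11 in EpdSCs. For Itgb1 the values were -0.57 in HFSCs and 1.59 in EpdSCs. Itgb6 was at -1.35 and 1.70 in the same order, and Pxn at -0.90 and 2.25. Lamb1 went the other way, with 2.34 in HFSCs and -5.49 in EpdSCs. So did Lama4, with 0.60 and -3.69, and Actn4, with 0.34 and -2.21. The groups of HFSCs also differed in age, which cannot be told apart from genotype, and with scaling to library totals Lama4 and Actn4 had negative values in HFSCs.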

How the results depend on the processing

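With 2 libraries per group, 1 library sets many calls, and a group left with 1 is assumed to vary like the other group. Unless said otherwise, a range of adjusted p over the alternatives includes the fits with a library left out. In both cell types, leaving out a library labelled Msx2-KO also raised the number of calls over all genes. Counts of members called in those fits are therefore not a result about the members. Leaving out each library in turn, the members called in HFSCs ranged from 0 to 3 higher and from 0 to 8 lower, with a median log2 fold change of -0.42 to -0.30, and those called in EpdSCs from 0 to 14 higher and from 0 to 15 lower, with a median of -0.82 to -0.0427. In HFSCs the median was -1.14 with library totals, -0.34 with mitochondrial and ribosomal RNA genes left out and -0.22 with at least 10 counts in every library, and 0 members were called in any of the settings that kept all libraries. Over all HFSC genes, edgeR called 0 of 14422, DESeq2 822 of 23227 and limma-trend 1407 of 14422. Of those 14422, edgeR called 231 with the replicate block and 51 with library totals. With the minimum of 10 counts it called 2 of 7994. In EpdSCs, 1 member was called higher with a pseudocount of 10 (619 of all 16231 genes) and 1 with limma-trend (684 genes). Members called lower numbered 1 with a pseudocount of 0.1 (all genes, 949), 9 with a pseudocount of 10 (1354) and 7 with limma-trend (1448). The EpdSC median was -0.26 with a mean of at least 10, -0.90 with library totals and -1.24 with mitochondrial and ribosomal RNA genes left out. Lama5 was among those called in the main comparison that were not called with a pseudocount of 0.1, library totals, a mean of at least 10, mitochondrial and ribosomal RNA genes left out or the replicate block. The cause of these changes was not tested.

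Log2 fold changes in HFSCs turned negative with library totals for Actn4 (-0.53), Fermt1 (-0.54), Ilk (-0.47), Lama2 (-0.30), Lama4 (-0.35), Lama5 (-0.81), Ptk2 (-0.41) and Src (-0.78), and for Src also with limma-trend (-0.17) and with mitochondrial and ribosomal RNA genes left out (-0.0197). Parva turned to 0.0161 with at least 10 counts in every library. In EpdSCs Itga2 turned to -0.0157 and Zyx to -0.17 with library totals, and Itga2 to -0.36, Lamc1 to -0.34, Vcl to -0.0622 and Zyx to -0.51 with mitochondrial and ribosomal RNA genes left out. Leaving out each library in turn, the log2 fold changes that turned ranged in HFSCs from -0.83 to 0.21 for Flna, -0.51 to 0.13 for Itgb5, -1.69 to 1.62 for Lama2, -0.13 to 0.16 for Lama5, -0.96 to 0.43 for Lims1, -0.27 to 0.0452 for Parva, -0.0634 to 0.85 for Ptk2 and -0.99 to 0.60 for Src, and in EpdSCs from -0.87 to 2.12 for Actn1, -0.13 to 1.62 for Bcar1, -0.82 to 1.32 for Itga2, -0.28 to 2.18 for Itga7, -3.40 to 0.80 for Itgb7, -0.70 to 1.24 for Lamc1, -4.32 to 0.68 for Parva, -0.0469 to 2.47 for Src, -0.69 to 1.78 for Vcl and -0.0617 to 0.26 for Zyx.

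The labels do not say that replicate numbers pair WT with Msx2-KO libraries. Across genes, deviations of the same number correlated at -0.055 in HFSCs and -0.0225 in EpdSCs. With 2 libraries per group this cannot decide whether libraries were paired. With the replicate number as a block, 0 members were called in HFSCs (231 of all 14422 genes), where their median was -0.30 and Src turned to -0.17. In EpdSCs that block called 4 members lower (1093 of all 16231 genes) and 0 higher (178 genes), with a median of -0.63.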
